A study of Homo sapiens with 3 samples.

Results

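The S100 calcium-binding proteins described here are 10 genes, S100A2, S100A3, S100A4, S100A6, S100A10, S100A11, S100A13, S100A14, S100A16 and S100P, out of 50868 genes in the deposited table. They were chosen by gene name, with the counts and FPKM of these libraries already known (FPKM is a count scaled to gene length and library total), so their own differences are a description and support nothing. RNA was sequenced from cells labelled AGS, a human gastric adenocarcinoma line, grown in RPMI medium with fetal bovine serum and harvested at 48 h. The groups were 12 µM SFA, 18 µM SFE and DMSO, the negative control, with 1 library each. SFA and SFE are code names, their structures are not used here, and their doses differ. Total RNA was depleted of ribosomal RNA before library preparation. Without replicates there was no test. Intervals are 95% counting intervals, and how far cultures differ is unknown.

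S100 proteins are small proteins of vertebrates that mostly work as dimers. Each chain carries a pair of EF hands, the helix-loop-helix motif that binds calcium, and binding exposes a surface that grips a partner protein such as an annexin, a myosin or an enzyme. Most of the human genes lie in a cluster on chromosome 1, within a region rich in genes of epidermal differentiation, and several are raised in epithelial tumours, including those of the stomach. S100A10 is an exception in that it no longer binds calcium and is held in its active shape.

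The libraries held 13639844 counts with SFA, 13644676 with SFE and 18767232 with DMSO, of which the 10 members took 0.0807%, 0.0828% and 0.0664%. The AGS label was checked on marker genes, and the outcome was mixed. Of 12 markers of simple epithelium, 5 reached 1 FPKM. KRT8, KRT18 and KRT7 were abundant, but EPCAM stood at 0.223, 0.0685 and 0.336 FPKM in the SFA, SFE and DMSO libraries and KRT19 at 0.103, 0.0514 and 0.162 FPKM. CDH1 had 32, 16 and 40 counts. These epithelial markers were thus nearly absent, and the identity of the cells was not tested further. No myeloid marker reached 1 FPKM (highest value 0.767 FPKM), and of 12 squamous markers in the table KRT10, which is not restricted to squamous cells, was the 1 that did. Of 9 fibroblast markers, 4 reached 1 FPKM, with COL1A1 the highest at 11.3 FPKM with DMSO. They are given below beside S100A4.

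Of the 10 members, 9 reached 1 FPKM, each of them in every library, and entered with 11680 measured genes. S100A14 did not. Differences are log2(FPKM + 1) of the compound library minus that of DMSO, and a gene is called at 1.5-fold or more on this scale. With SFA, 2 members were called higher, S100A16 and S100A10, beside 5.36% of all measured genes, and 1 lower, S100A4, beside 4.67%. With SFE, 3 were called higher, S100A16, S100A10 and S100A11, beside 5.34%, and 2 lower, S100A4 and S100A6, beside 3.48%. At 2-fold, S100A16 and S100A10 were higher and S100A4 lower in each comparison, beside 1.36% higher and 1.34% lower of all measured genes with SFA, and 1.37% and 1.01% with SFE. Both comparisons share the DMSO library. The median over the 9 members was −0.27 with SFA and −0.08 with SFE, against 0.01 and 0.03 over all measured genes. In bulk RNA, fewer cells that express a gene and less of its RNA per cell cannot be told apart.

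**Figure D1:**
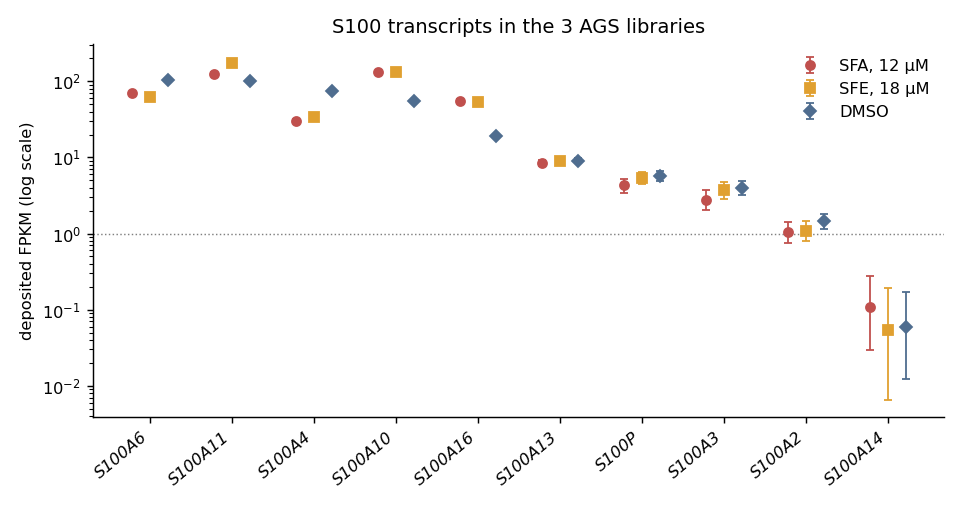
Deposited FPKM (log scale) of the 10 S100 genes in the SFA (circles), SFE (squares) and DMSO (diamonds) libraries, ordered by the DMSO level. Each point is 1 library, bars are 95% Poisson counting intervals and the dotted line is 1 FPKM; S100A10 and S100A16 lie higher, and S100A4 and S100A6 lower, with either compound than with DMSO, while S100A14 stays below 1 FPKM.

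S100A10, also called p11, pairs with annexin A2 under the plasma membrane, carries ion channels to the cell surface and binds plasminogen there. It lies on the minus strand of chromosome 1 (151982915 to 151994390, hg38). It had 3930 counts with SFA and 3950 with SFE, against 2237 with DMSO, or 131 and 132 FPKM against 54.3 FPKM. The count per total count was 2.42-fold that of DMSO with SFA (2.29 to 2.55) and 2.43-fold with SFE (2.31 to 2.56). The intervals of both folds lie above 2. S100A10 overlaps no other listed gene, and its difference ranked 86th from the top of 11680 with SFA and 74th with SFE.

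S100A16, a member found in many tissues, showed the largest difference among the members in both comparisons. It lies on the minus strand of chromosome 1 (153606886 to 153613145) and overlaps no other listed gene. It had 2501 counts with SFA and 2369 with SFE, against 1186 with DMSO, or 55.9 and 52.9 FPKM against 19.2 FPKM. The folds over DMSO were 2.90 with SFA (2.71 to 3.11) and 2.75 with SFE (2.56 to 2.95). Its difference ranked 49th from the top with SFA and 50th with SFE.

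S100A11, which binds annexin A1 and takes part in membrane repair and growth control of epithelial cells, was called higher with SFE. It had 1173 counts with SFA, 1638 with SFE and 1291 with DMSO, or 126, 177 and 101 FPKM. The folds over DMSO were 1.25 with 12 µM SFA (1.15 to 1.35) and 1.75 with 18 µM SFE (1.62 to 1.88). Both intervals lie above 1. The doses are not matched, so the compounds are not compared. S100A11 (chromosome 1, 152032506 to 152047907) overlaps the span of the antisense gene AL591893.1, which had 4, 6 and 2 counts and shares 0 exonic bases with it. The pseudogene S100A11P1 had 0, 0 and 1 counts, and S100A11P2 had none in any library.

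**Figure D2:**
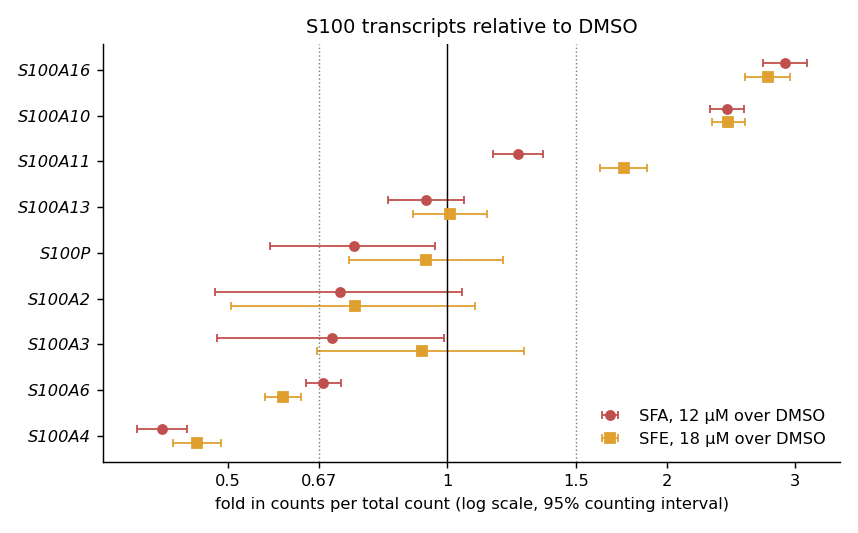
Fold of each measured S100 gene over DMSO in counts per total count (horizontal log axis) for SFA (circles) and SFE (squares), 1 library each. Bars are 95% counting intervals, the solid line is 1 and the dotted lines are 1.5-fold either way; S100A16 at 2.90 and 2.75 and S100A4 at 0.406 and 0.454 lie at the ends.

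S100A4, or metastasin, binds the tail of non-muscle myosin IIA and is known from motile and metastatic tumour cells. It was the member with the largest negative difference. It had 822 counts with SFA and 919 with SFE, against 2785 with DMSO, or 30.1 and 33.6 FPKM against 74.0 FPKM. It was 2.46-fold lower than DMSO with SFA (2.28 to 2.66) and 2.20-fold lower with SFE (2.04 to 2.38). Its difference ranked 72nd from the bottom of 11680 with SFA and 86th with SFE. The annotated span of S100A4 (chromosome 1, 153543613 to 153550136) holds that of S100A3 on the same strand, but their exons share 0 bases, and S100A3 had 49, 65 and 97 counts.

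S100A4 is also used as a marker of fibroblasts, so the fibroblast markers are given beside it. Of 9 such markers, 4 reached 1 FPKM, and the 9 summed to 16.9 FPKM with SFA, 20.1 with SFE and 31.1 with DMSO. COL1A1, a fibrillar collagen and the most abundant of them with DMSO, had 1055 and 1268 counts against 2741. COL3A1, another such collagen, had 190 and 306 counts against 1486 with DMSO, and PDGFRB, a growth factor receptor, had 363 and 413 against 1213. THY1 lay the other way, with 942 and 1053 counts against 858. Of the 5 others, PDGFRA had 0 counts in all 3 libraries and COL1A2 had 0, 0 and 1. DCN, LUM and FAP were detected below 1 FPKM. The 12 markers of simple epithelium summed to 683 FPKM with SFA and 683 with SFE, against 1075 FPKM with DMSO, and the 5 measured ones lay on both sides of DMSO. KRT8, KRT18 and ELF3 were lower, with folds of 0.536, 0.547 and 0.813 with SFA and 0.556, 0.551 and 0.770 with SFE. KRT7 and CLDN4 had folds of 1.37 and 1.33 with SFA and 1.28 and 1.16 with SFE, where the interval of CLDN4 includes 1. KRT8, KRT18, ELF3, KRT7 and THY1 each overlap another listed gene, so their values are uncertain. The part of either set of markers in the S100 differences was not tested.

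S100A6, or calcyclin, is found in proliferating cells and binds CACYBP, an adaptor of protein degradation. It had 1930 counts with SFA and 1700 with SFE, against 3928 with DMSO, or 70.1 and 61.7 FPKM against 103.7 FPKM. It was 1.48-fold lower with SFA (1.40 to 1.56) and 1.68-fold lower with SFE (1.59 to 1.78). With SFA this lies just short of the 1.5-fold limit, and under median-ratio or TMM scaling it passes it. S100A6 (chromosome 1, 153534599 to 153536244) shares 23 exonic bases with the antisense gene BX470102.3, which had 5, 8 and 4 counts.

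The other measured members were not called in either comparison. S100A13, which helps FGF1 and interleukin-1 alpha leave the cell without a signal peptide, had 460 and 496 counts against 677 with DMSO. Its folds were 0.935 with SFA (0.829 to 1.05) and 1.01 with SFE (0.896 to 1.13), so neither interval excludes 1. S100A13 shares 536 exonic bases with RP1-178F15.5 on its own strand and 235 with the antisense gene S100A1, which had 21, 27 and 61 counts, and its value is uncertain for that reason. S100P, first found in placenta and raised in many gastrointestinal tumours, had 93 and 117 counts against 172, with folds of 0.744 (0.572 to 0.963) and 0.936 (0.733 to 1.19). S100P is the member outside chromosome 1 and lies on the plus strand of chromosome 4 (6693069 to 6697170).

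S100A3, a zinc-binding protein of the hair cuticle, had folds of 0.695 with SFA (0.483 to 0.990) and 0.922 with SFE (0.663 to 1.27). S100A2, which is typical of basal cells of squamous epithelium, had 42 and 44 counts against 81, with folds of 0.713 (0.479 to 1.05) and 0.747 (0.505 to 1.09). With so few counts, the intervals of S100A2 include 1 in both comparisons and those of S100A3 and S100P include 1 with SFE. S100A14, a member made by many epithelia, had 4, 2 and 3 counts in the SFA, SFE and DMSO libraries. That is about the floor of 3 counts per library, and no fold is given.

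The levels of different genes can be compared only per length, and the length behind the deposited FPKM needs care. For 87.2% of 13734 genes with 20 or more DMSO counts it equals, within 1%, the summed length of all distinct annotated exons, in which overlapping exon forms are counted again. The length used for S100A6 was 2019 bases, longer than the 1646 bases the gene spans. Its merged exons cover 971 bases. S100A11 has the same length of 680 bases either way. Folds between libraries do not depend on this length, but the order of the members does.

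On merged exon length, the order with DMSO was S100A6 at 215.6 FPKM, S100A4 at 144.8, S100A11 at 101.2, S100A10 at 77.3 and S100A16 at 37.2. With SFA it was S100A10 at 187, S100A6 at 146, S100A11 at 126, S100A16 at 108 and S100A4 at 58.8. With SFE, S100A10 at 188 and S100A11 at 177 came first, with overlapping counting intervals, before S100A6 at 128, S100A16 at 102 and S100A4 at 65.7. S100A13, S100P, S100A3, S100A2 and S100A14 followed in this order in all 3 libraries, and S100P and S100A3 were neighbours with overlapping intervals in each. On the deposited scale, S100A11 at 101 FPKM lay beside S100A6 at 104 FPKM with DMSO, with overlapping intervals. The first place with SFE then went to S100A11.

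As a group, the members summed to 430 FPKM with SFA, 476 with SFE and 373 with DMSO on the deposited scale. Their summed counts were 1.22-fold those of DMSO with SFA (1.18 to 1.25) and 1.25-fold with SFE (1.22 to 1.28). The make-up of that sum differed more than its size. S100A10 and S100A16 together made 43.5% of the members' FPKM with SFA and 38.8% with SFE, against 19.7% with DMSO. S100A4 and S100A6 together made 23.3% and 20.02%, against 47.7%. On merged exon length the first pair made 45.2% and 42.0%, against 18.83%, and the second 31.4% and 28.1%, against 59.3%. These pairs were formed from the differences shown above and add no support to them.

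**Figure D3:**
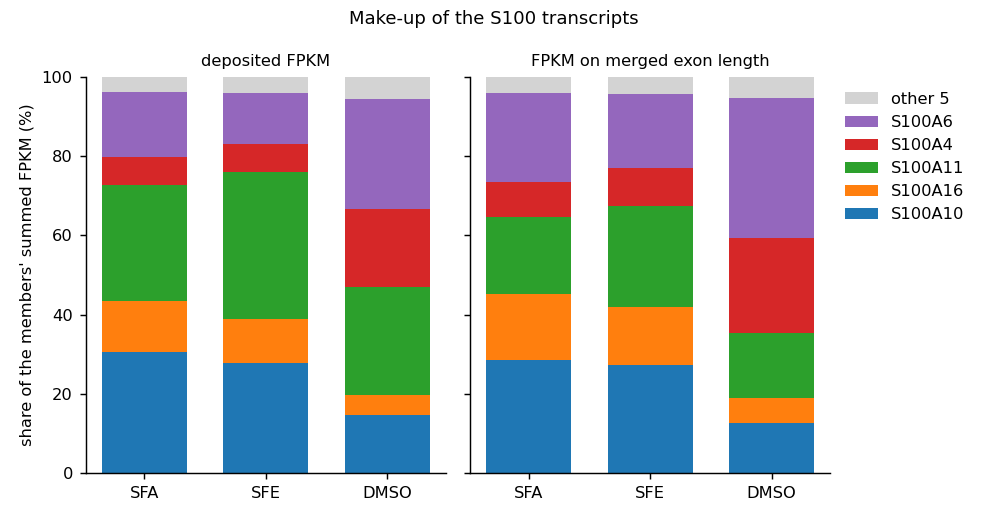
Share (%) of the 10 members' summed FPKM taken by each of 5 S100 genes and by the remaining 5 together, in the SFA, SFE and DMSO libraries (1 each), on the deposited FPKM and on FPKM over merged exon length. The blocks of S100A10 and S100A16 are wider with SFA and SFE than with DMSO, and those of S100A4 and S100A6 narrower, on both scales.

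Along chromosome 1 the 9 clustered members, all on the minus strand, fall into 2 blocks. S100A10 and S100A11 lie 38.1 kb apart, and 1487 kb separate S100A11 from S100A6. The second block runs from S100A6 through S100A4, S100A3, S100A2, S100A16 and S100A14 to S100A13. Its members lay on both sides of DMSO: S100A4 was lower and S100A16, which starts 56.7 kb beyond it, was higher, while S100A13, on the far side of S100A16, differed by −0.09 with SFA and 0.01 with SFE. Of 107 other listed genes within or up to 250 kb from the members on chromosome 1, 11 were measured. With SFA, 0 of these 11 were called higher and 1 lower, NPR1, a natriuretic peptide receptor, at 2.24 FPKM against 3.99 with DMSO. With SFE, 1 was called higher, BX470102.3 at 8 counts against 4, and 0 lower. BX470102.3 reached 1 FPKM with SFE alone, at 1.10 FPKM, so it was measured only through the library where it is high. The interval of its SFE fold, 0.737 to 12.5, includes 1, and the call is no support. ILF2, a double-stranded RNA binding factor and the most abundant of them, stood at 127 and 124 FPKM against 120.1 FPKM with DMSO.

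**Figure D4:**
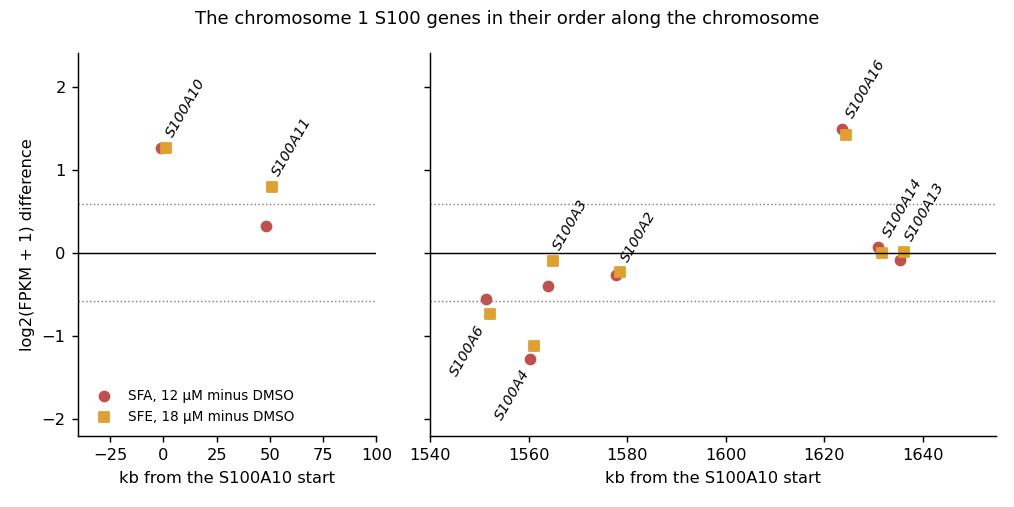
log2(FPKM + 1) difference from DMSO of the 9 chromosome 1 members for SFA (circles) and SFE (squares), by distance in kb of the gene's lower coordinate from that of S100A10, S100A14 drawn although it stayed below 1 FPKM; the axis is broken between the blocks and points are shifted slightly sideways. Dotted lines are 1.5-fold; S100A4 and S100A16 lie on opposite sides of 0 within the second block.

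Promoters are printed for the pair of members with the largest positive and the pair with the largest negative differences, since these differ from DMSO in opposite directions. The sequences are from RefSeq (GRCh38.p14), all on the minus strand, from 250 bases before to 50 after the annotated start, and all 10 members matched the table. Capitals mark letters of 5 motifs searched on both strands: the TATA box TATAAA, the GC box GGGCGG, the AP-1 site TGAGTCA, the core of the antioxidant response element TGACNNNGC and the CCAAT box CCAAT. On the opposite strand the AP-1 site can overlap the antioxidant response element core. S100A10 lies at chr1:151993810-151994109, S100A16 at chr1:153613088-153613387 (the outer of 2 starts), S100A4 at chr1:153545757-153546056 and S100A6 at chr1:153535942-153536241.
S100A10: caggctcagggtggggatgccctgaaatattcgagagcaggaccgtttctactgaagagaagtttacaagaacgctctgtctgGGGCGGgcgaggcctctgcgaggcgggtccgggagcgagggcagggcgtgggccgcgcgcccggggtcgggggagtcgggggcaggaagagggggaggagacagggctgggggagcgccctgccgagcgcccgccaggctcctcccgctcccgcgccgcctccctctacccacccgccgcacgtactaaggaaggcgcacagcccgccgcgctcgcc
S100A16: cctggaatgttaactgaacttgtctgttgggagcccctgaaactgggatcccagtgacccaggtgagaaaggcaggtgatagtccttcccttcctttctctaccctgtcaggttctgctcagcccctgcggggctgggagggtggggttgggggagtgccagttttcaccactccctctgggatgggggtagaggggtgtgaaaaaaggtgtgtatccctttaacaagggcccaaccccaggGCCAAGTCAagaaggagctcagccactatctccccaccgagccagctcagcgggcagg
S100A4: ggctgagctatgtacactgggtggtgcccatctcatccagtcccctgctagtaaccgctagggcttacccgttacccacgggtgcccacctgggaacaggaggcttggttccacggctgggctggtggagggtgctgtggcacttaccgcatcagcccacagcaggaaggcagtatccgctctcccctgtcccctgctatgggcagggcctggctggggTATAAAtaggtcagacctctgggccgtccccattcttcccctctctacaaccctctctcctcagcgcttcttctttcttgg
S100A6: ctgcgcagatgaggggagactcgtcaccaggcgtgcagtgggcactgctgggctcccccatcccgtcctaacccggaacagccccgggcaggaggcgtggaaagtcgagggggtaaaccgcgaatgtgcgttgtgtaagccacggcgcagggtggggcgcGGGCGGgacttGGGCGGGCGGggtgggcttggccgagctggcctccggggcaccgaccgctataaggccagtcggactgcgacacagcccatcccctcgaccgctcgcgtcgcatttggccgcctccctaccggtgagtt

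The S100A4 promoter holds a TATA box whose first base lies 31 bases before the start, and none of the other 4 motifs. The S100A6 promoter holds 3 GC boxes, of which the 2 nearest the start overlap, and that of S100A10 1. The outer S100A16 promoter holds 1 antioxidant response element core, on the opposite strand and beginning 8 bases before the start, and the inner one holds 1 GC box and 2 CCAAT boxes. Among 35116 promoters of this length in the table, 11.5% hold a TATA box, 45.0% a GC box, 4.95% an AP-1 site, 13.4% the antioxidant response element core and 34.6% a CCAAT box. A match is a description of letters, and a motif that is missing from this window may lie elsewhere.

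ANXA2, MYH9 and CACYBP, partners of S100A10, S100A4 and S100A6, lay closer to DMSO than those members did. This did not hold for every pair. ANXA1 with SFA lay farther from DMSO than S100A11, and EZR with SFE lay farther than S100P, both on log2(FPKM + 1) and on count ratios. ANXA1 with SFE lay farther than S100A11 on count ratios only. EZR with SFA lay farther than S100P on log2(FPKM + 1) only. ANXA2, the annexin that holds S100A10, stood at 132 and 132 FPKM against 121 FPKM with DMSO, a fold of 1.08 with SFA and 1.09 with SFE. The ratio of S100A10 to ANXA2 in FPKM on merged exon length was 0.924 with SFA and 0.924 with SFE, against 0.414 with DMSO. AHNAK, a giant scaffold that binds S100A10 with annexin A2, stood at 52.9 FPKM with SFA and 75.7 with SFE, against 58.7 with DMSO. ANXA1, the partner of S100A11, was 1.78-fold higher with SFA (1.66 to 1.92) and 1.76-fold higher with SFE (1.64 to 1.895). It stood at 23.8 and 23.6 FPKM against 13.4 FPKM. The ratio of S100A11 to ANXA1 on merged exon length was 4.46 with SFA and 6.29 with SFE, against 6.36 with DMSO. Of 10 measured annexins, 1 was called higher with SFA, ANXA1, and 1 lower, ANXA8, and with SFE ANXA1 was called higher and 0 lower. ANXA8 has a near-identical copy, ANXA8L1, so its value is uncertain.

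MYH9, the myosin heavy chain bound by S100A4, had folds of 1.05 with SFA (1.03 to 1.07) and 1.09 with SFE (1.07 to 1.11). The ratio of S100A4 to MYH9 in FPKM on merged exon length was 0.366 and 0.393, against 0.947 with DMSO. MYH10, a second non-muscle myosin, was lower, at 3.51 and 4.12 FPKM against 6.68 FPKM. CACYBP, the partner of S100A6, had folds of 1.17 (1.05 to 1.30) and 1.09 (0.979 to 1.22). The ratio of S100A6 to CACYBP on merged exon length was 14.2 with SFA and 13.4 with SFE, against 24.5 with DMSO. EZR, or ezrin, which links membrane to actin and is bound by S100P, stood at 65.4 and 64.7 FPKM against 50.2 FPKM. The ratio of S100P to EZR on merged exon length was 0.0435 with SFA and 0.0553 with SFE, against 0.0762 with DMSO. Of 9 measured binding partners, MYH10 was the 1 called in each comparison, and it was lower. ANXA2, AHNAK, CACYBP, EZR and MYH10 each overlap another listed gene, as do 7723 of the 11680 measured genes. Their values, and the ratios built on them, are uncertain for that reason.

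Among 6 measured surface receptors of S100 proteins, 1 was called, SDC4, a heparan sulfate carrier, which was higher at 66.4 and 59.3 FPKM against 38.7 FPKM. AGER, the receptor for S100 ligands best known as RAGE, did not reach 1 FPKM. TLR4, another such receptor, stood at 1.28 and 1.19 FPKM against 1.01 FPKM. In the plasminogen system, to which S100A10 belongs at the cell surface, SERPINE2, a protease inhibitor, was called higher in each comparison, at 35.3 and 30.9 FPKM against 17.4 FPKM. PLAUR, the urokinase receptor, had folds of 1.54 and 1.57 on counts. On log2(FPKM + 1) its differences were 0.551 and 0.578, short of 1.5-fold, so it was not called in either comparison. PLAU, urokinase itself, had folds of 1.15 and 1.08 on counts. SDC4, PLAUR and PLAU each overlap another listed gene, so their values are uncertain.

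Other calcium binders with EF hands had a median difference of −0.01 with SFA and 0.05 with SFE over 26 measured genes. With SFA 1 was called higher, CALM2, and 1 lower, NCS1. With SFE 2 were called higher, CALM2 and NUCB1, and 0 lower. CALM2, which encodes the calcium sensor calmodulin, had 2749 and 2702 counts against 1610 with DMSO, a fold of 2.35 (2.21 to 2.50) with SFA and 2.31 (2.17 to 2.46) with SFE. CALM3, which encodes the same protein, had folds of 0.923 and 0.965. CALM2, CALM3 and NUCB1 each overlap another listed gene, so their values are uncertain.

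**Figure D5:**
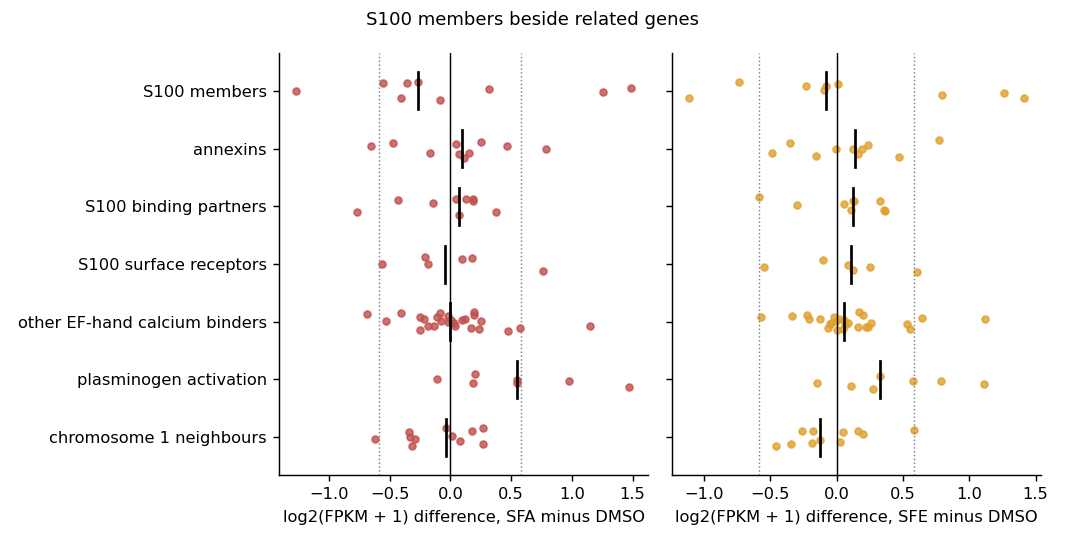
log2(FPKM + 1) differences of SFA minus DMSO (left) and SFE minus DMSO (right) for the 9 measured S100 members and the measured genes of 6 related lists; each point is a gene and each black bar the list's median. Dotted lines are 1.5-fold; the S100 members run from −1.27 to 1.49 with SFA and from −1.12 to 1.41 with SFE.

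The genes nearest to a member in both differences were sought among 1956 protein-coding genes that overlap no other. These genes needed to reach 5 FPKM in any library, not in all of them. Nearness was the Euclidean distance over the 2 log2 differences from DMSO, whatever the level. Nearest to S100A16 lay DUSP3 (distance 0.14), a phosphatase, ABCC3 (0.19), an efflux pump, and GDF15 (0.24), a stress cytokine. Nearest to S100A10 lay PANX2 (0.08), a pannexin, DUSP4 (0.08), a phosphatase of MAP kinases, and B3GAT3 (0.11), an enzyme of glycosaminoglycan synthesis. Nearest to S100A4 lay NPTX1 (0.01), a neuronal pentraxin, ARHGAP18 (0.10), a GTPase activating protein, and VGLL3 (0.19), a cofactor of TEAD factors. The genes near S100A4 reached 5 FPKM with DMSO alone, where they are high. Of those near S100A16 and S100A10, B3GAT3 alone reached 5 FPKM with DMSO. With 2 differences per gene that share the DMSO library, such closeness is given as a description.

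The rest of the family was nearly silent. Of 11 other S100 genes in the table, 0 reached 1 FPKM, and the highest was S100A1, known from heart muscle, at 0.346, 0.445 and 0.731 FPKM. It lies above the member S100A14, so membership does not follow a level. S100A8 and S100A9, the calprotectin chains of myeloid cells, had 0 and 4 counts with SFA, 2 and 3 with SFE and 6 and 0 with DMSO. S100A12 had 0, 3 and 3 counts, S100A5 had 3, 3 and 8, and S100B, the glial member, had 2, 0 and 0. S100A7, S100A7A, S100A7L2, S100G and S100Z had none in any library, which allows up to 3 counts each. None of the 7 fused-type genes of the same chromosomal region, such as FLG and HRNR, which build the skin barrier, reached 1 FPKM.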

How the data were processed

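StringTie 1.2.3, HISAT2 2.0.4 and the build hg38 are named by the submitters' processing notes, with no role. Which program counted, and with which strand setting, is not given in the sources used here. A single table came from the authors, with raw counts and FPKM per gene and library. The deposited FPKM was the count per total count and per gene length; that length was compared with GENCODE 29 exons. FPKM is not corrected for composition.

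The identifier with the highest mean FPKM was kept per gene name, and genes entered where any library reached 1 FPKM. Differences used a pseudocount of 1, and folds are ratios of counts per total count with exact conditional (Clopper-Pearson) 95% intervals. Reads carried no molecular identifiers, so intervals and floors cover counting error only. With 1 library per group there was no test. The fold calls and intervals were tested on simulated data.

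The members and gene lists were chosen with earlier results of these data known. Text names all members, all other S100 genes, and per list the counts and up to 6 genes by largest difference, besides partners fixed by name (ANXA2, ANXA1, AHNAK, MYH9, EZR, CACYBP, CALM2 and CALM3). AGER and ILF2 lie outside this rule and were chosen after their values were seen. Some genes of these lists are not reported here. Promoters and motifs were matched to RefSeq by gene symbol. Alternatives were filters of 0 and 5 FPKM, a pseudocount of 0.1, median-ratio and TMM scaling (edgeR 4.0.16), leaving out overlapping genes, summing identifiers, leaving out mitochondrial genes and, added after seeing the data, merged exon length. Python 3.11.15 and scipy 1.17.1 were used.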

Additional observations from a re-analysis of the deposited data

Results flagged for a closer look

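AHNAK, the scaffold bound by S100A10 with annexin A2, lay on opposite sides of DMSO with the 2 compounds: its count per total count was 0.902 of that with DMSO in the SFA library and 1.29 times that in the SFE library. MCAM, an adhesion molecule that can bind S100 proteins, did so as well on total counts, at 0.875 with SFA and 1.06 with SFE. On this scale the counting intervals of both genes exclude 1 in opposite directions. For MCAM with SFE the interval is 1.03 to 1.10, while the TMM factors were 1.03 for SFE and 0.964 for DMSO. The side of DMSO on which MCAM lies with SFE thus depends on the scaling. The doses were 12 and 18 µM, each group has 1 library, and the difference between the compounds was not tested. AHNAK overlaps another listed gene, and its value is uncertain. No S100 member met the same rule.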

How the results depend on the processing

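No paired analysis was possible because each group has 1 library. Over the alternatives run, S100A10, S100A16, S100A4, S100A6 and S100A11 kept the direction of their difference in both comparisons wherever they entered. The SFA minus DMSO difference of S100A16 ranged from 1.43 to 1.53 and that of S100A4 from −1.33 to −1.27. S100A13 with SFE turned to −0.06 under median-ratio and −0.08 under TMM scaling. Either scaling raised the members called lower with SFA to 2, by adding S100A6. Leaving out overlapping genes leaves 4 measured members, because S100A4, S100A6, S100A11, S100A3 and S100A13 overlap others; 0 were then called lower with SFA and 0 with SFE, and the members' median turned to 0.49 and 0.59. That median with SFA was −0.087 at a 5 FPKM filter and −0.42 with a pseudocount of 0.1. Over all genes the counts at 1.5-fold higher and lower, then at 2-fold higher and lower, also moved. With SFA they were 295, 276, 98 and 95 at the 5 FPKM filter, 1120, 995, 452 and 374 with the pseudocount of 0.1, and 228, 179, 55 and 48 without overlapping genes. With SFE they were 268, 207, 94 and 72, then 1152, 746, 464 and 282, then 207, 119, 47 and 33. The filter and the overlap rule test fewer genes, 5455 and 3957 against 11680 in the main run, so their counts are lower for that reason too. For the pseudocount, low genes are shrunk less. Depth limits S100A2, S100A3, S100P and S100A14.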
